A study of Homo sapiens with 2 samples.

Results

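The 7 genes described here encode annexin A2 and 6 S100 proteins of the neuroblastoma line SH-SY5Y. They are S100A4 (ENSG00000196154), S100A6 (ENSG00000197956), S100A10 (ENSG00000197747), S100A11 (ENSG00000163191), S100A13 (ENSG00000189171), S100A16 (ENSG00000188643) and ANXA2 (ENSG00000182718), out of 33538 gene identifiers in the count table. They were named with their levels and spread in these cells in view, so those values are given as a description and carry no test. SH-SY5Y is an established human cell line of adrenergic, neuron-like character. Untreated cells were grown in 2 flasks, SplitA and SplitB, tagged with 1 hashtag antibody per flask and sequenced together as 1 library of 3′ UMI counts (unique molecular identifiers, 1 per captured molecule). A cell was given to a flask when 1 hashtag had at least 3 times the counts of the other and the other stayed under a fixed limit, which left 1179 cells in SplitA and 1605 in SplitB, and cells with at least 1000 genes were kept. The kept cells were 899 of SplitA with 5852780 UMIs and 1195 of SplitB with 8066440 UMIs, at a median of 6063 and 6346 UMIs per cell and a range of 1801 to 27205.

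The flasks had the same line and the same condition, and per the paper both were split from the same culture. They are the only replicates, are not independently derived cultures, and no treatment was compared. Cells of a flask are not replicates of each other, hence no p-value is given. The adrenergic marker genes summed to 2529 CPM (UMIs per 1000000 UMIs of the flask) in SplitA and 2448 in SplitB, with all 9 detected, TH by only 9 UMIs in each flask. Of the markers of other cell types, SOX10 and FOXD3 (Schwann cells), PECAM1, VWF and CDH5 (endothelium), PTPRC (leukocytes) and PRRX1, DCN and COL1A2 (stroma) had no UMI in any kept cell, while the summed lists ranged from 0 CPM for endothelial genes to 23.6 CPM for stromal genes. Other genes of these lists were detected. In SplitA and SplitB 3 and 4 of 6 Schwann and glial genes had a UMI, as did 4 of 7 stromal and 1 of 4 leukocyte genes in each. The epithelial list had 3 and 2 of 4 genes with a UMI and summed to 12.1 and 16.6 CPM.

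S100 proteins are small calcium-binding proteins that act as dimers and dock onto target proteins when calcium rises. S100A10 is the exception, since it no longer binds calcium and sits instead in a stable complex with annexin A2, a protein that binds acidic phospholipids of the plasma membrane. That complex links the membrane to actin and can hold plasminogen and its activator at the cell surface. S100A11 pairs with annexin A1, S100A6 (calcyclin) with the calcyclin-binding protein CACYBP, S100A4 with non-muscle myosin IIA, and S100A13 takes part in the export of growth factors that lack a signal peptide.

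The 6 S100 genes lie on the minus strand of chromosome 1 (GRCh38, GENCODE release 44) in an interval from 151982915 to 153631360, and ANXA2 lies on chromosome 15 from 60347134 to 60402883. S100A10 (151982915 to 151993859) and S100A11 (152032506 to 152047907) are neighbours with a gap of 38.6 kb. S100A6 (153534599 to 153536244) begins 1487 kb further on and is followed by S100A4 (153543613 to 153550136), S100A16 (153606886 to 153613145) and S100A13 (153618787 to 153631360). Of the 69 gene identifiers in this interval 12 had a UMI, and only S100A6 and S100A11 were detected in at least 10% of the cells of each flask. S100A4 overlaps S100A3 on the same strand, a gene with 1 UMI in SplitA and 3 in SplitB, and S100A13 overlaps S100A1 on the other strand, which had none. The annotation lists 11 pseudogenes named after the members, and none has a row in the table.

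S100A10 and S100A11 are the pair of members with the highest correlation over cells. S100A6 is the most abundant member, and S100A4 was the least tied to the others. The promoters of these 4 members are printed because the results turn on them. Each is the 250 bases before the start given by RefSeq (GRCh38.p14, minus strand, written 5′ to 3′), and capitals mark a GC box (GGGCGG) or a TATA box (TATAA) on either strand.
S100A10, chr1:151993860-151994109: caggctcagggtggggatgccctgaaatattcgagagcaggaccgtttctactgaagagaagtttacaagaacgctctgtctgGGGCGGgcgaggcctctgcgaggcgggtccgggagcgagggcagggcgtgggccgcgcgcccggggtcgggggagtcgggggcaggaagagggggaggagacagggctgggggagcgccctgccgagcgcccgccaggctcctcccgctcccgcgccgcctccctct
S100A11, chr1:152037005-152037254: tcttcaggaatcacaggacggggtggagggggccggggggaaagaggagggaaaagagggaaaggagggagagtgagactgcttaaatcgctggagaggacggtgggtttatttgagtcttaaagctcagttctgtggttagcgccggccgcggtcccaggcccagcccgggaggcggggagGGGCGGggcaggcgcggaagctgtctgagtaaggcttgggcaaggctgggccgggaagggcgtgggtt
S100A6, chr1:153535992-153536241: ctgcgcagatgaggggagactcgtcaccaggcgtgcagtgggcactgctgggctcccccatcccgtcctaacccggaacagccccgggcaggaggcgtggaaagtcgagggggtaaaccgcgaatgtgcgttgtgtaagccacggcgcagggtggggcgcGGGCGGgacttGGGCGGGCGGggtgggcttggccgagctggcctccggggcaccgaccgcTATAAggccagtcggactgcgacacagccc
S100A4, chr1:153545807-153546056: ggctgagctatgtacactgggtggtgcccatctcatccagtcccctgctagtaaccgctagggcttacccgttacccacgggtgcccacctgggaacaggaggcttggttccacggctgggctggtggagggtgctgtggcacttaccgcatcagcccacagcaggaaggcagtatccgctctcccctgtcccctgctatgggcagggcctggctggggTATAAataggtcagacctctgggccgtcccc
A start was found for all 7 members, 10 starts in all. S100A10 and S100A11 each hold 1 GC box and no TATA box, at a GC content of 71.2% and 63.6%. The promoter of S100A6 holds 3 GC boxes and a TATA box, ANXA2 (not printed, GC content of 78.0%) has the same counts plus the only AP-1 site (TGANTCA) among the 10 starts, and S100A4 has a TATA box alone. Over 35116 RefSeq promoters of the same length, 42.6% hold a GC box, 18.9% a TATA box and 6.57% an AP-1 site, and the median GC content is 58.0%. These matches describe letters and were not read as binding sites.

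S100A6 was the most abundant member in both flasks. Its level was 293 CPM in SplitA (exact Poisson 95% interval 279 to 307) and 313 CPM in SplitB (301 to 326), which is 62.0% and 59.4% of the UMIs of all 7 members. S100A11 followed with 91.6 CPM (84.0 to 99.7) and 114 CPM (107 to 122). The membrane pair came next, ANXA2 at 35.7 and 39.5 CPM and its partner S100A10 at 25.3 and 28.1 CPM. S100A4 had 16.1 and 20.5 CPM, S100A13 had 8.2 and 7.69 CPM, and S100A16 had 3.08 and 4.46 CPM. The order was the same in both flasks, and the intervals of neighbours overlapped only for S100A13 (5.89 to 9.85) and S100A16 (3.13 to 6.18) in SplitB. These levels are not divided by transcript length, because a 3′ library gives 1 count per molecule. The intervals cover counting error only and are too narrow for a gene whose UMIs sit in few cells.

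The 7 members together reached 473 CPM (456 to 491) in SplitA and 528 CPM (512 to 544) in SplitB. No member differed between the flasks by 1.5-fold, a size reached by 4.86% of the 11902 genes with at least 10 UMIs in each flask. The largest ratio of SplitB to SplitA was 1.45 for S100A16, which rests on 18 and 36 UMIs, followed by 1.27 for S100A4 and 1.25 for S100A11. A difference between the flasks cannot be tested with 1 flask against 1 flask.

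The 690 cells under the minimum of 1000 genes held the members in another proportion. S100A6 was at 98.9 CPM (71.0 to 134) in SplitA and 96.2 CPM (72.4 to 125) in SplitB, and ANXA2 reached 82.0 CPM (56.8 to 115) and 105 CPM (80.0 to 135), so that the intervals of these 2 genes overlapped. Their median depth was 1460.5 UMIs in SplitA and 1355 in SplitB.

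The members differed in how their UMIs were spread over cells. An S100A11 UMI was found in 15.9% of SplitA cells (exact binomial interval 13.6% to 18.5%) and 17.3% of SplitB cells (15.2% to 19.6%), where 43.3% and 51.4% would have one if every cell held the same proportion at its own depth. S100A10 was found in 7.01% and 8.45% of cells against 15% and 17% on that reckoning, and S100A6 in 62.5% and 64.2% against 81.1% and 83.6%. These 3 genes were thus concentrated in fewer cells than their levels imply. By contrast ANXA2 was found in 18.8% and 19.5% of cells, against 20.4% and 22.9%. S100A4 was found in 9.01% and 12.1%, against 9.84% and 12.7%. Both genes were nearer to the shares of an even spread. The gap to the expected share also depends on the level of a gene, and S100A4 had few UMIs. It does not rank the spread of the members by itself. The ANXA2 interval in SplitB (17.3% to 21.9%) still lay below the expected 22.9%. S100A13 was found in 4.56% and 4.69% of cells and S100A16 in 1.78% and 2.34%. With every cell thinned to 2000 UMIs, which left out 1 cell of SplitA and 2 of SplitB, the shares were 9.47% and 10.5% for S100A11, 3.67% and 2.93% for S100A10 and 34.4% and 35.6% for S100A6. No cells known to lack these genes were set apart, so the share that free RNA gives was not measured.

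**Figure D1:**
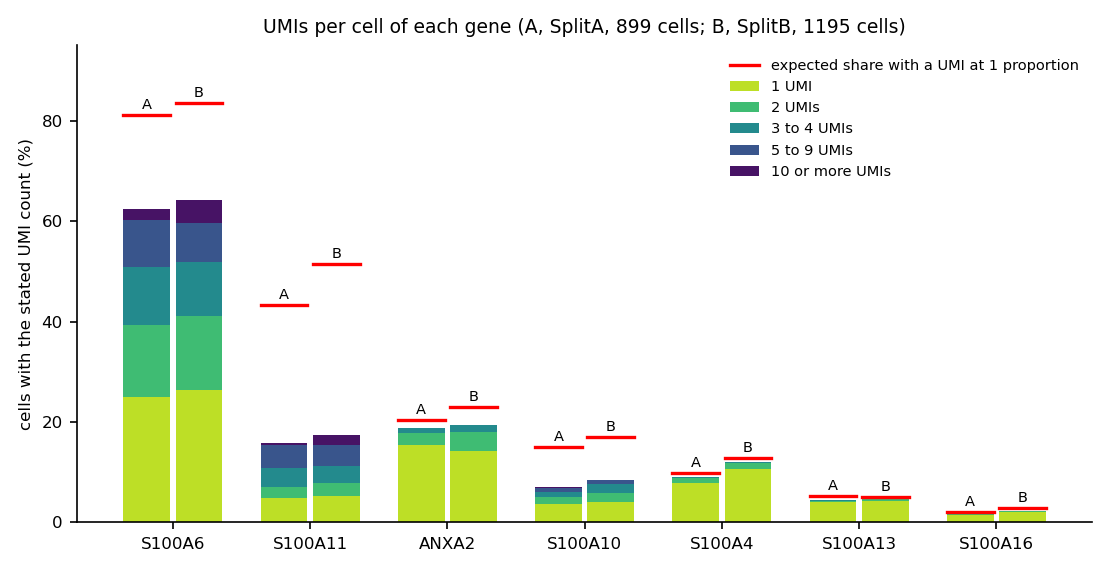
Share of kept cells (vertical axis, percent) with 1, 2, 3 to 4, 5 to 9 and 10 or more UMIs of each member, stacked, for SplitA (A, 899 cells) and SplitB (B, 1195 cells). The red line is the share expected to have a UMI if each cell held the same proportion of the gene. It lies farthest above the bars for S100A11 and S100A6, less far for S100A10, and nearer to them for ANXA2 and S100A4.

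The counts per cell show the same skew. Among cells with an S100A11 UMI the median was 3 UMIs in each flask, and the highest cell had 12 UMIs in SplitA and 34 in SplitB. In SplitA 756 cells had none, 44 had 1 and 46 had 5 or more, while in SplitB 988 had none, 63 had 1 and 73 had 5 or more. In both flasks cells with 5 or more UMIs were thus slightly more numerous than cells with 1. S100A10 reached 16 and 9 UMIs in its highest cells, S100A6 reached 34 and 37, and S100A4 never exceeded 3. The 10% of cells with the highest S100A11 level held 86.2% and 86.4% of its UMIs. This was 42.8% and 48.4% for S100A6 and 60.3% and 60.5% for ANXA2. The median of the 11902 genes was 100% in each flask, the value of any gene seen in under 10% of cells. This share therefore depends on how many cells have a UMI and does not measure skew by itself.

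The spread was summarised by a dispersion index: the summed squared deviations of cells from their expected counts, divided by the summed expected counts. It is near 1 for counting noise alone. S100A11 had an index of 5.05 in SplitA and 8.27 in SplitB, places 31 and 20 of the 11902 genes. S100A6 followed with 4.66 and 4.82 (places 36 and 40) and S100A10 with 4.59 and 3.14 (places 37 and 82). The median gene had 1.03 in each flask, while an index of 2 or more was reached by 1.47% of genes in SplitA and by 1.71% in SplitB, with 1.36% reaching it in both. The same 3 members were above 2 in both flasks, S100A16 only in SplitB (2.21, against 1.2 in SplitA), and ANXA2 (1.26 and 1.39), S100A4 (1.2 and 1.13) and S100A13 (1.36 and 1.15) in neither. The S100A16 value of SplitB rests on 36 UMIs, 7 of them in 1 cell. The index grows with the level of a gene. Overdispersion is the summed squared deviation beyond counting noise relative to the summed squared expected counts. By this measure the order was another. S100A10 took places 25 and 102 of the 11902 genes, the rare S100A16 took 152 and 13, and S100A11 278 and 145. S100A13 took 276 and 660, and S100A6 1130 and 1151. S100A4 took 1136 and 2196, beside S100A6 in SplitA, and ANXA2 took 1903 and 1431. With cells thinned to 2000 UMIs the mean index of the flasks was 2.36 for S100A11, 1.77 for S100A6 and 1.68 for S100A10. Thinning lowers the counts, and with them the index of any gene spread beyond counting noise. The share of all genes above 2 was not computed at that depth, so these values cannot be set against that limit.

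The members were next compared with each other within each flask by Pearson r of LogNorm values (counts scaled to 10000 per cell, plus 1, natural log). The closest pair was S100A10 and S100A11, with r = 0.61 over the 899 SplitA cells and 0.58 over the 1195 SplitB cells. Of the 63 SplitA cells with an S100A10 UMI 56 also had S100A11 (88.9%, interval 78.4% to 95.4%), against 10.4% (8.42% to 12.7%) of the cells without S100A10. In SplitB this was 87 of 101 cells (86.1%, 77.8% to 92.2%) against 11% (9.18% to 13%). If the genes were unlinked, 10.0 and 17.5 cells would hold both. The cells with S100A10 were deeper than the rest, at a median of 7036 against 6018 UMIs in SplitA and 8591 against 6245 in SplitB.

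S100A6 joined this pair, since its r was 0.51 in each flask with S100A11 and 0.34 and 0.37 with S100A10. An S100A6 UMI was found in 91.6% of the SplitA cells with S100A11 and 57.0% of those without, and in 92.8% and 58.2% of SplitB cells. ANXA2 was more loosely tied, with r = 0.23 and 0.28 with S100A11, 0.22 and 0.21 with S100A6, and only 0.16 and 0.17 with S100A10, the partner of its protein. The rare S100A16 and S100A13 were also found with S100A11 in many cells: 62.5% of the 16 SplitA cells and 67.9% of the 28 SplitB cells with S100A16 had it, against 15.1% and 16.1% of the cells without S100A16. For S100A13 it was 41.5% of 41 and 51.8% of 56 cells, against 14.7% and 15.6%. The cells with S100A13 had a median of 8694 UMIs against 6005.5 in SplitA and 7671 against 6304 in SplitB, and those with S100A16 had 7176.5 against 6047 and 8661.5 against 6308. S100A4 was the least tied to the others, since its 6 values of r ran from -0.018 to 0.11 in SplitA and from -0.019 to 0.074 in SplitB. The highest in each flask was with S100A6, the member to which S100A4 lies nearest. S100A6 with S100A13 had 0.099 and 0.13. In SplitA 24.7% of the 81 cells with S100A4 had S100A11, against 15.04% of those without. In SplitB it was 21.4% of 145 cells against 16.8%, and the intervals overlapped in both flasks. The cells with S100A4 were also deeper, at a median of 7223 against 5988 UMIs in SplitA and 7206 against 6238.5 in SplitB.

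**Figure D2:**
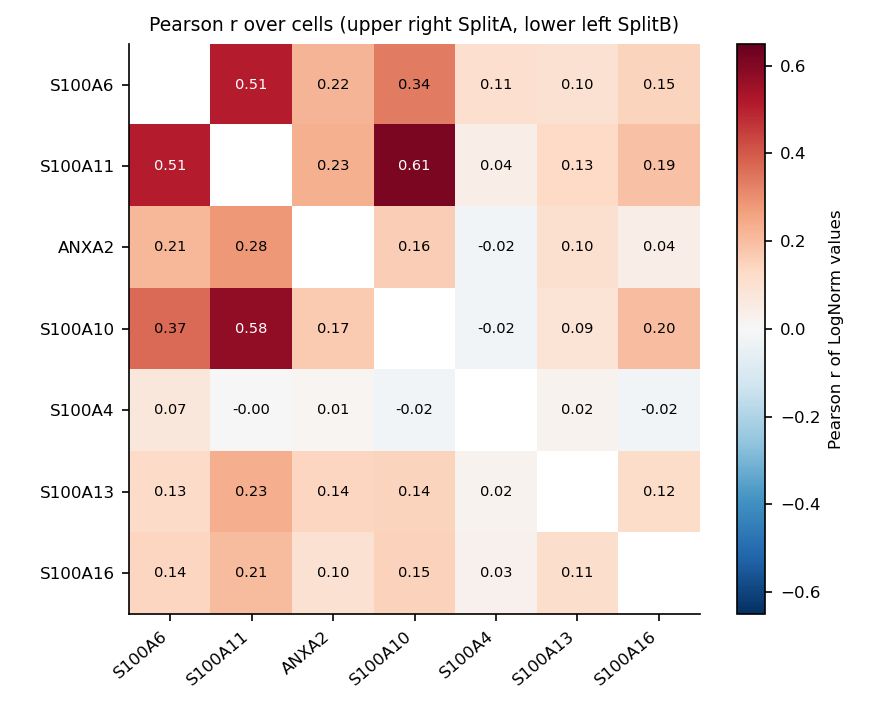
Pearson r of LogNorm values for the 21 pairs of members, SplitA in the upper right and SplitB in the lower left. S100A6, S100A11 and S100A10 form the block with the highest values (0.34 to 0.61), and the values of S100A4 run from -0.019 to 0.11.

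In all 5 of 21 pairs had r of at least 0.2 in both flasks, and 0.138% of all pairs of the 5191 genes detected in at least 10% of the cells of each flask did so. Of the members S100A6, S100A11 and ANXA2 are among those genes, and S100A10, which is in 2 of the 5 pairs, is not. The median over the 21 pairs was 0.12 in SplitA and 0.14 in SplitB, and over all pairs of tested genes 0.0053 and 0.0056. Thinning to 2000 UMIs lowered every one of the 5 values and left 2 pairs above 0.2 in both flasks, S100A10 with S100A11 (0.36 and 0.26) and S100A6 with S100A11 (0.28 and 0.33). Within cell cycle phases r of S100A10 and S100A11 was 0.59 and 0.59 in G1, 0.54 and 0.45 in S and 0.74 and 0.59 in G2M. S100A11 and ANXA2 had 0.31 and 0.39 in G1, 0.081 and 0.10 in S and 0.17 and 0.24 in G2M. S100A11 had fewer UMIs in S than in G1, and the part of its level in these values was not tested. No cell held all 7 members, and 50 cells of SplitA and 75 of SplitB held 4 or more.

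Cells were then grouped by their S100A11 UMIs (0, 1, 2 to 4, 5 or more) and the other members summed in each class. S100A10 went from 1.70 CPM in SplitA cells without S100A11 to 36.6, 89.0 and 219 CPM (176 to 269) over the classes, and in SplitB from 2.56 to 54.3, 101 and 169 CPM (141 to 202). S100A6 went from 182 to 479, 685 and 1017 CPM in SplitA and from 190 to 311, 710 and 1040 CPM in SplitB. ANXA2 was 27.0 CPM without S100A11 and 82.7 CPM (57.3 to 116) at 5 or more in SplitA, and 27.1 and 94.1 CPM (73.2 to 119) in SplitB. S100A4 stayed level, with 15.3 and 19.5 CPM in SplitA and 20.8 and 21.8 CPM in SplitB, the intervals overlapping in every class.

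Between the outer classes 5 of the other 6 members, all but S100A4, differed by at least 1.5-fold upward in both flasks, a size that 8.65% of 11901 genes reached upward and 9.61% downward. For S100A16 this rests on 7 UMIs in each outer class of SplitA, and on 9 and 17 UMIs in SplitB. S100A13 had 24 and 6 UMIs in SplitA, with overlapping intervals (3.27 to 7.59 and 5.36 to 31.8 CPM), and 27 and 22 UMIs in SplitB. The median depth was 6001.5 UMIs in the lowest and 7536.5 in the highest class of SplitA, and 6213 and 8130 in SplitB, while the median mitochondrial share lay between 8.09% and 9.01% in all classes. The part of depth in these differences was not tested in this split. A cell can miss S100A11 by sampling, so the class with none also holds cells that express it.

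**Figure D3:**
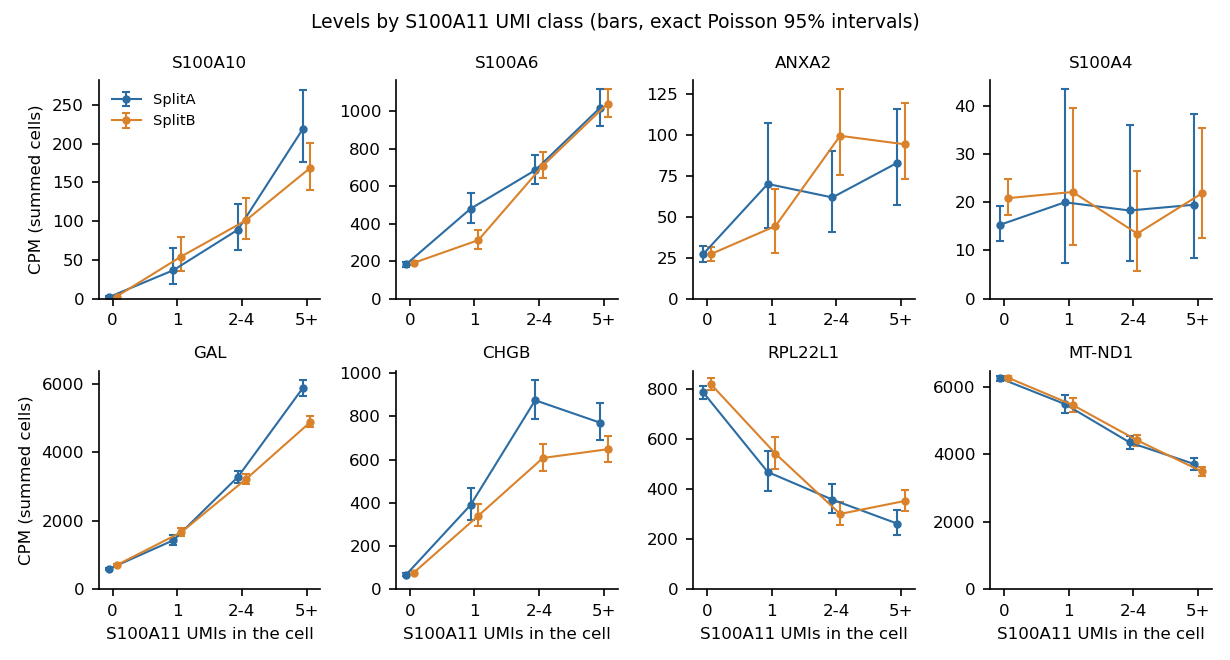
Levels in CPM (vertical axes, from 0) of 4 members and 4 other genes in cells grouped by S100A11 UMIs (horizontal axes), for SplitA and SplitB, with exact Poisson 95% intervals as bars. S100A10, S100A6, GAL and CHGB are higher in each outer class than in cells without S100A11, S100A4 is level, and RPL22L1 and MT-ND1 are lower.

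Cell cycle phases were called from 43 S and 54 G2M genes, and 4 members were higher in G1 than in S and G2M. S100A11 had 163 CPM (147 to 180) in the G1 cells of SplitA, 42.9 CPM (33.7 to 53.8) in S and 43.3 CPM (34.1 to 54.3) in G2M, and in SplitB 184 CPM (170 to 199), 50.8 CPM (42 to 60.9) and 75.8 CPM (65.2 to 87.8). S100A6 was at 424, 215 and 192 CPM in SplitA and at 438, 239 and 206 CPM in SplitB. S100A10 was at 42.6, 14.3 and 12.7 CPM and at 40.1, 16.5 and 22.3 CPM. S100A4 shared this feature with the others, at 21.5, 13.2 and 11.6 CPM in SplitA and 28.3, 14.8 and 14.7 CPM in SplitB.

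For these 4 members the G1 level was at least 1.5 times that of S and of G2M in both flasks, as for 2.08% of the 11902 genes. ANXA2 was not among them, because its ratio of G1 to S was 1.34 in SplitA and 1.03 in SplitB. The ratio of G1 to S was 1.27 and 1.67 for S100A13, and for S100A16, with at most 14 UMIs in a phase, it was 3.19 in SplitA and 0.815 in SplitB. G1 cells were 36.8% and 39.7% of the cells without S100A11 and 78.3% (63.6% to 89.1%) and 78.1% (66.9% to 86.9%) of those with 5 or more. The summed members had r = 0.185 and 0.20 with the log10 UMIs of the cell and -0.14 and -0.14 with its mitochondrial share. Their part in the levels by phase was not tested.

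The genes that moved with the members were sought among 5188 other genes detected in at least 10% of the cells of each flask. With the summed UMIs of the 7 members, 37 genes (0.713%) had r of at least 0.2 in both flasks and 5 (0.0964%) had -0.2 or less, while the median gene had 0.013 and 0.017. The count of 37 depends on depth and scaling, from 6 with cells thinned to 2000 UMIs to 152 with a minimum of 300 genes per cell. Highest was GAL, the neuropeptide galanin (0.48 and 0.48), followed by DLK1, a membrane protein related to Notch ligands (0.44 and 0.42), and CHGB, the granule protein chromogranin B (0.45 and 0.39). Next came LGALS1 (galectin-1), GNAS (a stimulatory G protein subunit), VIM (vimentin), SH3BGRL3, TFPI2 (a protease inhibitor), DDC (the decarboxylase that makes dopamine) and CAMTA1, with the value nearer 0 between 0.27 and 0.37. The other end held MT-ND1, a mitochondrially encoded subunit of respiratory complex I (-0.34 and -0.32), RPL22L1, a paralogue of ribosomal protein L22 (-0.26 and -0.31), PTMA, RPS7, HMGB2, SMC4, TUBB, H2AZ1, MT-ND3 and CENPF.

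Each flask was used to look up the genes ranked in the other. The 50 genes with the highest r in SplitA had a median of 0.23 in SplitB, with 68.0% of them at 0.2 or more, against 0.906% of all genes. Ranked in SplitB, 80.0% of the 50 were at 0.2 or more in SplitA, against 1.29%. Per the paper's methods the flasks were tagged apart and then pooled into 1 library, so they share processing only from pooling onward. They also came from the same parent culture. The look-up thus does not compare independently derived cultures.

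**Figure D4:**
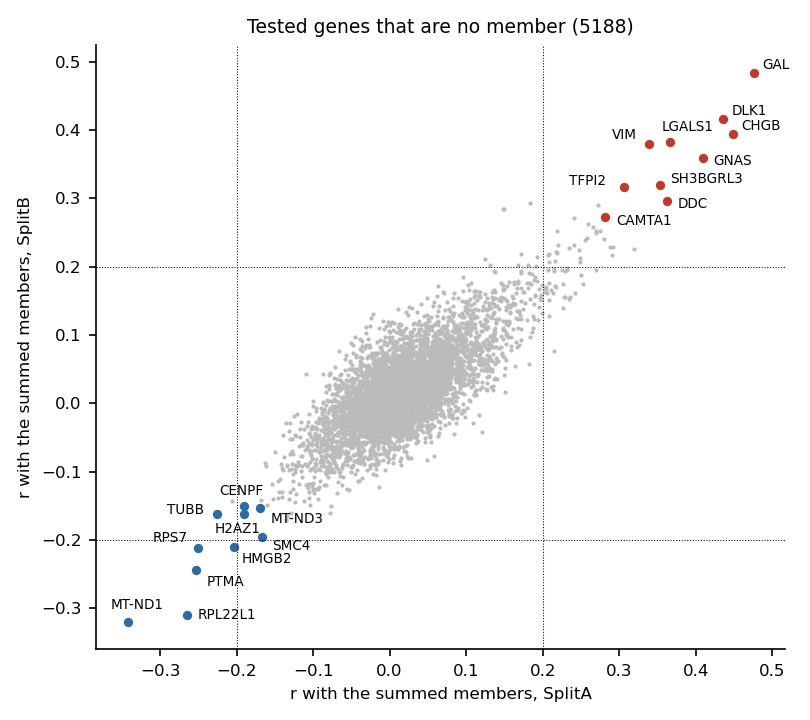
Pearson r of each tested gene with the summed members in SplitA (horizontal axis) and SplitB (vertical axis), members left out, with the 10 highest and 10 lowest named. Dotted lines mark 0.2 and -0.2, and the named genes at both ends lie near the diagonal.

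Member by member the leading correlates were largely shared, with r of different size. S100A6, S100A11 and S100A10 had GAL first (0.42 and 0.47, 0.51 and 0.48, 0.39 and 0.38), then DLK1 and GNAS for S100A6, CHGB (0.58 and 0.46) and DLK1 for S100A11, and CHGB and TFPI2 for S100A10. S100A6 had 36 genes (0.694%) at 0.2 or more in both flasks and 0.0578% at -0.2 or less, S100A11 had 39 (0.752%) and 0.0771%, and S100A10 had 9 at 0.2 or more. ANXA2 had VIM first (0.22 and 0.23), then TFPI2 (0.21 and 0.21) and DLK1, with 2 genes (0.0386%) past 0.2. S100A13 led with GAL, VIM and GNAS and S100A16 with TFPI2, GAL and GNG11, all below 0.2 in both flasks. S100A4 was apart again, with CDKN1C, an inhibitor of cyclin-dependent kinases, first (0.11 and 0.11), then PCBD1 and ZSWIM7, and no gene past 0.2.

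The gene lists place these values. In the lists r is with the summed UMIs of the 7 members, of which S100A6 gave 62.0% in SplitA and 59.4% in SplitB. It is not r with the single member whose protein a listed gene product binds. Of 15 other S100 genes 5 had a UMI, S100A2 with 12 and 38, S100B with 26 and 28, S100A3, S100A5 and S100A7, and none was detected in 10% of cells. S100A1, S100A8, S100A9, S100A14, S100P and the 5 others had no UMI among 13919220, which allows up to 0.216 CPM. Of 12 other annexins 3 were tested, ANXA11 (0.018 and 0.048), ANXA5 (-0.064 and 0.0090) and ANXA7 (-0.051 and 0.088), and ANXA1, the partner of S100A11, had no UMI. None of these 3, and none of 7 tested genes for binding partners and the plasminogen system, passed 0.2. AHNAK, which binds the complex of S100A10 and annexin A2, had 0.13 and 0.11, CACYBP had -0.039 and 0.056, and MYH9, the heavy chain of myosin IIA, had 0.059 and 0.045. PLG and HTR1B had no UMI.

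Neuropeptide and granin genes had the highest median of the lists, 0.19 in SplitA and 0.16 in SplitB over 9 tested genes. GAL and CHGB passed 0.2 in both flasks, CHGA (0.27 and 0.195) and SCG2 (0.19 and 0.19) came close, and VGF had 0.19 and 0.16. NPY had 0.12 and 0.16, PCSK1N 0.14 and 0.061 and CPE 0.029 and -0.016, while SCG3 was negative in both flasks (-0.086 and -0.0096). In the actin and membrane cytoskeleton list 1 of 18 tested genes passed, LGALS1, and PFN1 (0.19 and 0.19) and MYL6 (0.19 and 0.16) did not. Vimentin (0.34 and 0.38) was the 1 of 3 tested mesenchymal genes to pass, whereas TWIST1 had -0.060 and -0.049 and SPARC -0.034 and 0.014. In the adrenergic list 1 of 9 passed, DDC (0.36 and 0.30). None of 4 tested AP-1 genes passed, JUND being highest (0.11 and 0.10).

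S phase genes had medians of -0.078 and -0.090 over 28 genes and G2M genes -0.096 and -0.079 over 36. HMGB2 (-0.20 and -0.21) was the only cell cycle gene at -0.2 or less in both flasks. NASP (-0.15 and -0.13) and RRM2 (-0.14 and -0.11) were lowest in the S list by the value nearer 0. Among other named genes, the histone gene H4C3 had -0.11 and -0.12, the metallothionein MT2A 0.10 and 0.15 and the cell cycle inhibitor CDKN1A 0.14 and 0.16.

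The summed UMIs of S100A10 and S100A11 alone, a choice made after the values were seen, gave 38 genes (0.732%) at 0.2 or more and 4 (0.0771%) at -0.2 or less. GAL (0.52 and 0.50) and CHGB (0.60 and 0.48) were again at the top. At the other end RPL22L1 came first (-0.39 and -0.39), then MT-ND1 (-0.37 and -0.38), RPS7 (-0.35 and -0.28) and PTMA (-0.33 and -0.25). RPL22 itself had 0.19 and 0.26, the opposite sign to its paralogue. In cells with 5 or more S100A11 UMIs RPL22 was at 1202 and 1204 CPM against 801 and 803 CPM without S100A11, and RPL22L1 at 263 and 353 CPM against 789 and 821 CPM. MT-ND1 went from 6249 to 3710 CPM in SplitA and from 6270 to 3489 CPM in SplitB.

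No other mitochondrial gene came near MT-ND1. Of the 12 tested, the next lowest with S100A10 and S100A11 were MT-ND2 (-0.11 and -0.15) and MT-ND3 (-0.11 and -0.14), and MT-ND5 had 0.17 and 0.093. The share of MT-ND1 in the mitochondrial UMIs of a cell had r = -0.38 and -0.40 with S100A10 and S100A11.

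The positions of the correlated genes were also examined, a step added after RPL22 and CAMTA1 had been seen. Tested genes were grouped into 89 windows of 10 Mb that held at least 20 of them. The first window of chromosome 1 stood first, with a median r with S100A10 and S100A11 of 0.14 in SplitA and 0.13 in SplitB over 28 genes, and the next window, on chromosome 14, had 0.039 and 0.061. In that window 13 of 28 genes had r of at least 0.1 in both flasks (46.4%, against 4.45% of 5173 placed genes). The window that holds the S100 genes themselves, far along the other arm, had 0.032 and 0.031 over 81 genes. The lowest was the start of chromosome 2 (-0.048 and -0.044 over 20 genes), in which RPS7 lies.

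AURKAIP1 (0.32 and 0.30), FAAP20 (0.30 and 0.27), CAMTA1 (0.27 and 0.31), SDF4 (0.20 and 0.22) and PARK7 (0.20 and 0.24) led the 28 genes, with roles from mitochondrial translation to DNA repair and oxidative stress. In steps of 5 Mb the medians were 0.16 and 0.079 (15 genes), 0.13 and 0.15 (13 genes) and 0.12 and 0.12 (5 genes) up to 15 Mb, and then -0.014 and 0.014 (17 genes) from 15 to 20 Mb. The 28 genes summed to 2568 CPM in SplitA cells without S100A11 and to 4507 CPM (4304 to 4717) in those with 5 or more, a ratio of 1.76, and in SplitB to 2572 and 4512 CPM (4359 to 4668), a ratio of 1.75. Without RPL22 the ratio was 1.87 in each flask. The other 501 tested genes of chromosome 1 had ratios of 0.981 and 0.998 for the same classes. The window was chosen for its r with S100A10 and S100A11 in these cells, and it holds RPL22 and CAMTA1, which prompted the step, so the ratios describe that choice and are no separate evidence for it. The values rose in step with the class, 1.32 and 1.29 at 1 UMI and 1.65 and 1.62 at 2 to 4.

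By member, the median r of the 28 genes was 0.14 and 0.12 for S100A11, 0.10 and 0.095 for S100A6, 0.083 and 0.091 for S100A10, 0.045 and 0.050 for ANXA2 and 0.0017 and 0.013 for S100A4. The medians of all tested genes were between -0.00046 and 0.018 for these 5 members. DNA copy number was not measured in this series.

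**Figure D5:**
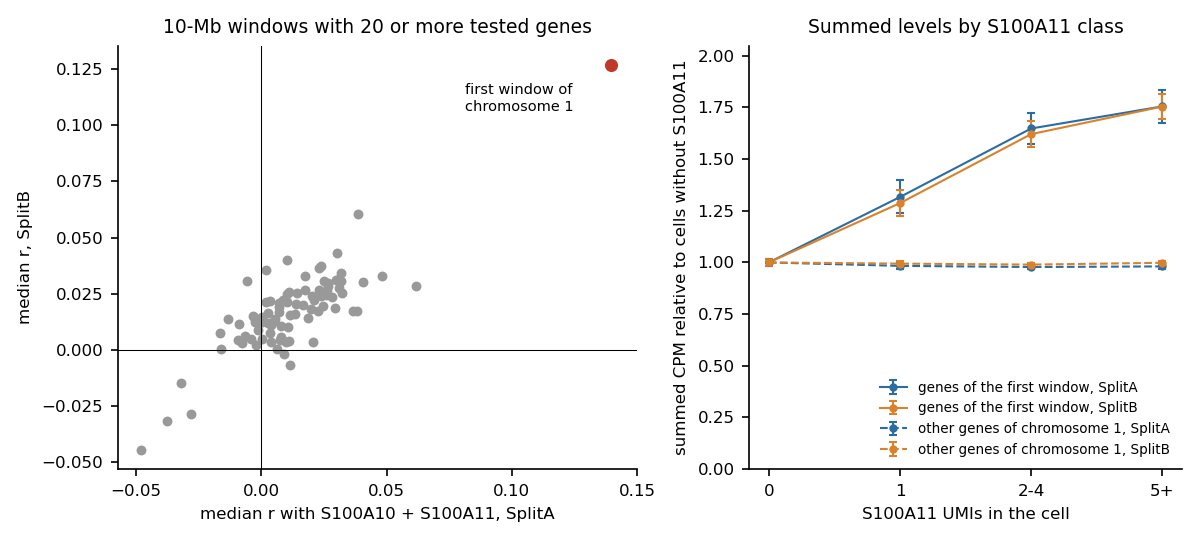
Left, median r of the tested genes of each 10-Mb window with the summed S100A10 and S100A11, SplitA against SplitB, each point 1 of 89 windows. Right, summed CPM by S100A11 UMI class relative to cells without S100A11, with exact Poisson 95% intervals, for the 28 genes of the first window of chromosome 1 (solid) and its 501 other tested genes (dashed), where the solid lines reach 1.76 and 1.75 and the dashed lines stay near 1.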

How the data were processed

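The values deposited by the authors are raw UMI counts per gene identifier and cell, with 2 hashtag rows, in 1 table of 2879 cells. Per the paper's methods and the labels, reads were mapped to hg38/GRCh38 with STAR 2.7 and counted with Cell Ranger 4.0.0. The annotation release is not given in the sources used here. The labels give both flasks the same name, and SplitA and SplitB are the names of the paper for Hashtag-1 and Hashtag-2. Cells called multiplets by the hashtags were left out, and doublets within a flask were not removed. No mitochondrial limit was set. Of 33538 identifiers 33113 were matched by Ensembl identifier to symbols and positions of GENCODE release 44.

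Levels are summed UMIs per 1000000. Phases were called with Seurat 5.3.0 in R 4.3.3. The remaining steps, LogNorm values, r, dispersion and exact intervals at 95%, used scipy 1.17.1, numpy 2.4.6 and pandas 2.3.3 under Python 3.11.15, and matplotlib 3.10.9 drew the plots. The computation of r and dispersion was tested on simulated data. UMIs mark molecules, and intervals cover counting error only. Genes seen in under 10% of cells in either flask were not tested.

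The members, lists and limits were chosen with earlier results of these data known. Genes named by rule are the members, the 10 highest and 10 lowest by the r nearer 0, the 3 highest for each member, up to 4 per list with its genes at 0, and GAL, CHGB, DLK1, TFPI2, H4C3, MT2A and CDKN1A. CACYBP, given as the partner of S100A6, MT-ND2, MT-ND5, the other S100 genes with a UMI and the cell type markers fall outside this rule. RPL22, RPL22L1 by class, TH, the neuropeptide and granin genes beyond the first 4, and the genes and windows of chromosome 1 were chosen after their values were seen. Of the alternatives 14 were planned and 1 was added.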

Additional observations from a re-analysis of the deposited data

How the results depend on the processing

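No paired analysis was possible because the result comes from no test and the 2 flasks are the only replicates. Levels, counts and dispersion indices cannot be negative, so only values of r could change sign. The median r of member pairs and the r of pairs among S100A6, S100A10 and S100A11 kept theirs under the alternatives run for them. Among the 21 pairs, thinning to 2000 UMIs turned S100A13 with S100A16 (from 0.12 and 0.11 to -0.0035 and -0.0079) and S100A16 with ANXA2 (from 0.041 and 0.10 to -0.0094 and -0.024), and in SplitB S100A10 with S100A16 (from 0.15 to -0.014) and with S100A13 (from 0.14 to -0.017). The sign also changed in 1 flask for S100A4 with S100A13 (from 0.021 to -0.021 in SplitA) and with S100A11 (from -4.0e-05 to 0.038 in SplitB). Of 53 summary values 38 stayed within 1 SD of the 2 flasks, or within 1.5 times for counts, and of 156 values of single members, pairs and the chromosome 1 window 105 did. Both tallies include the runs that leave out 1 flask. In those runs a value that is not a count stays within 1 SD by arithmetic, because the main value is the mean of the 2 flasks. Such values are no check of the result. The main values, as means of the flasks, were 500.4 CPM for the summed members, 5 pairs of members, a median r of 0.131 over pairs and 37 genes with r of at least 0.2.

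Thinning to 2000 UMIs gave 459 CPM, 2 pairs, a median r of 0.0655 and 6 genes, out of 1859 tested in place of 5191. A minimum of 2000 genes per cell, which kept 833 cells, gave 577 CPM, 8 pairs, 0.185 and 105 genes, and a minimum of 300 genes, which kept 2754, gave 3 pairs and 152 genes. The summed level was 449.6 CPM without the 5% deepest cells and 552 CPM with mitochondrial genes left out of the total. Pearson residuals gave 63 genes and partial r given the S and G2M scores 24. Leaving out 1 flask gave 473 to 528 CPM, a median r of 0.122 to 0.140, 6 to 7 pairs and 47 to 67 genes, since 1 flask then had to pass alone. The sum of S100A10 and S100A11 in place of all members gave 38 genes. The r of S100A10 and S100A11 ran from 0.309 (thinned) to 0.611, and the median r of the 28 genes of chromosome 1 from 0.0705 (thinned) to 0.162. The causes were not tested. Depth limits S100A13 and S100A16 most, with 48 and 62 UMIs and 18 and 36 UMIs in the flasks.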
